A study of Homo sapiens with 4 samples.

Results

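The genes described here are the 54 members of a list widely used to score the G2 and M phases of the cell cycle in single cells. They were chosen by name, and all 54 were among the 19973 genes of the table of corrected expression. That table gives 1 mean level per gene for each of 19 sub-populations, numbered 0 to 18, into which the authors had clustered cells of 4 lung adenocarcinoma cell lines. The question was how G2/M transcripts were distributed over these sub-populations, and whether all members followed the same distribution.

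All 4 lines descend from PC9, an established human line with an EGFR exon 19 deletion, and none was under drug when sampled: each was cultured for 3 days without it. PC9-BrM4, labelled BM4, was obtained from PC9 by repeated passage through the mouse brain after arterial injection. C2 and R2 came from brain metastases that PC9-BrM4 formed in mice given vehicle (C2) or the EGFR kinase inhibitor osimertinib (R2). Both were then infected with an eGFP lentivirus. The PC9 cells from which selection began already carried a lentiviral reporter (thymidine kinase, GFP and luciferase), as the paper states. Passages of each line were combined into 1 library per line, so no value here has a replicate and no statistical test was possible. The study's text calls sub-populations 0 and 4 most prevalent in C2, 1 and 5 most prevalent in R2, and 8 prevalent in both, while in its plot PC9 cells fill 2 and 3, and PC9-BrM4 cells 6 and 7. A value belongs to a sub-population, and a line named beside it stands for the sub-population so placed.

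Entry into mitosis is driven by CDK1 bound to cyclin B. The kinase brings about condensation of the chromosomes, breakdown of the nuclear envelope and assembly of the spindle. The anaphase promoting complex (APC/C) then marks cyclin B and securin for destruction, which lets the sister chromatids part and the cell divide. Transcripts of this machinery accumulate through G2 and M under the factors MYBL2 and FOXM1, and in G0 and G1 most are held down by the DREAM complex. In tumour tissue they are read as a measure of proliferation. Many of their promoters carry CCAAT boxes, which bind NF-Y, and an element named CHR, with the letters TTTGAA or TTTAAA, which binds DREAM and related complexes.

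Those letters were searched on both strands in the 250 bases before the start of each RefSeq promoter (GRCh38.p14). Of the 54 members, 45 were matched, with 58 windows in all. CCAAT was found in 38 of the 58 windows (65.5%), against 32.0% of the 35116 windows of all genes, and at least 2 copies in 44.8% against 9.53%. TTTGAA was found in 48.3% against 13.3%, TTTAAA in 20.7% against 11.3%, and either of them in 62.1% against 21.9%. No stretch of 6 bases can match both, and a match is a run of letters, not a site shown to be bound. Given here, 5′ to 3′ and with these motifs in capitals on either strand (ATTGG and TTCAAA are the reverse strands of CCAAT and TTTGAA), are the windows of the 3 matched members with the largest and the 3 with the smallest difference between the sub-populations compared further on. All 6 hold CCAAT and TTTGAA, as many windows of the members do. Whether motifs went with the size of that difference was not tested.
TOP2A, chr17:40417897-40418146, minus strand: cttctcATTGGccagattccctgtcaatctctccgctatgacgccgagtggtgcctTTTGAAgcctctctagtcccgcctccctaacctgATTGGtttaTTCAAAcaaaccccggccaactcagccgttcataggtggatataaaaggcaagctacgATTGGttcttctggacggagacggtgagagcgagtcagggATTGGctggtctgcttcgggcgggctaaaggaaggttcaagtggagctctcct
CDK1, chr10:60778081-60778330, plus strand: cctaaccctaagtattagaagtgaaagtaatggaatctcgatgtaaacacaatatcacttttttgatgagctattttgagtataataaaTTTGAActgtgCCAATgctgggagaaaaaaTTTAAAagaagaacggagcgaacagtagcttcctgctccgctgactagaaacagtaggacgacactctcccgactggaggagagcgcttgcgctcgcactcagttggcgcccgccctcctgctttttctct
HJURP, chr2:233854536-233854785, minus strand: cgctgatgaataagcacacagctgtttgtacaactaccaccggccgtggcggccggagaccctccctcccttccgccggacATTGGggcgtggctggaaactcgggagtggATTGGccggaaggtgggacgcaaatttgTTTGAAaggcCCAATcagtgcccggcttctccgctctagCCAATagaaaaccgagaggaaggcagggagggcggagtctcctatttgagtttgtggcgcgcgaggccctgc
TUBB4B, chr9:137241037-137241286, plus strand: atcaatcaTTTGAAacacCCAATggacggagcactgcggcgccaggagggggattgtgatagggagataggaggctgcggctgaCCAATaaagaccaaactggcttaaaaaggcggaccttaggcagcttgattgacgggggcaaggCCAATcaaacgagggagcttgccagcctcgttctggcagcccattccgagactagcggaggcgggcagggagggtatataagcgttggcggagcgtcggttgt
CDC20, chr1:43358731-43358980, plus strand: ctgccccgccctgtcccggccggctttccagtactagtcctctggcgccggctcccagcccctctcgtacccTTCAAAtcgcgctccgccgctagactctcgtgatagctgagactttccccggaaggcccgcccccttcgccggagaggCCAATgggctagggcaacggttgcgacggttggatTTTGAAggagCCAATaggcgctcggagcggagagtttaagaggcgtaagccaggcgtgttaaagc
CCNB2, chr15:59104896-59105145, plus strand: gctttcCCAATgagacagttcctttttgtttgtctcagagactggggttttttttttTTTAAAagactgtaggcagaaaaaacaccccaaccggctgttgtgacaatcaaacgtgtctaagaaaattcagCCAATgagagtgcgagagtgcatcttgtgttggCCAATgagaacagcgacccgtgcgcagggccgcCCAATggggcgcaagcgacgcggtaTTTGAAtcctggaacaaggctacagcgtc

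Levels are given as corrected UMIs (unique molecular identifiers, each marking 1 captured transcript) after the sum of each sub-population was scaled to 1000000, abbreviated CPM. Sub-populations held from 111 to 3373 cells, 24441 in all, with 12491 to 15635 corrected UMIs per cell. The correction had brought cells to a common depth. The ratio of uncorrected to corrected levels of mid-abundance genes, a measure of what it removed, was between 0.728 and 1.40 in sub-populations 0 to 8, but 0.159, 0.184 and 0.202 in 13, 14 and 16. In 16, mitochondrial transcripts made up 70.9% of UMIs, against 6.72% to 23.3% elsewhere. Defining markers of fibroblasts, leukocytes and endothelial cells summed to at most 7.29, 0.674 and 6.79 CPM in any sub-population, while epithelial markers summed to between 4437 and 23743 CPM. The intervals given are 95% Poisson intervals of corrected UMIs, and they leave out every source of spread but counting. Their median half-width was 4.53% of the mean for the members in sub-populations 0 to 8. In 13, 14 and 16, where corrected levels far exceeded uncorrected ones, they are narrower than the counting error of the UMIs captured.

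The summed G2/M level set sub-population 3 apart at the top and 18 at the bottom. The members summed to 9016 CPM in 3 (8987 to 9045), and to 1364 CPM in 18 (1308 to 1422), a ratio of 6.61. Next to 3 came 17 at 7323 CPM, then 11 at 7072 and 4 at 7046, whose intervals overlapped each other, then 6 at 6790 and 5 at 6222. Each line thus had a sub-population with a high and a sub-population with a low G2/M level: 3 against 2 in PC9 (9016 and 4943 CPM), 6 against 7 in PC9-BrM4 (6790 and 4408), 4 against 0 in C2 (7046 and 3909) and 5 against 1 in R2 (6222 and 3536). Below all of these lay 8 at 2405 CPM and 16 at 2176 CPM. The middle of the order was held by 9 (5814) and 13 (5807), by 14 (5285), and by 15 (4461), 12 (4414) and 10 (4326), where 9 and 13 overlapped in their intervals, as did 15, 12 and 7, and 12 and 10. In sub-population 3 the members took up 0.902% of all UMIs. The order by uncorrected counts had a rank correlation of 0.85 with this one, and there the sum in 8 was not below that in 7.

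**Figure D1:**
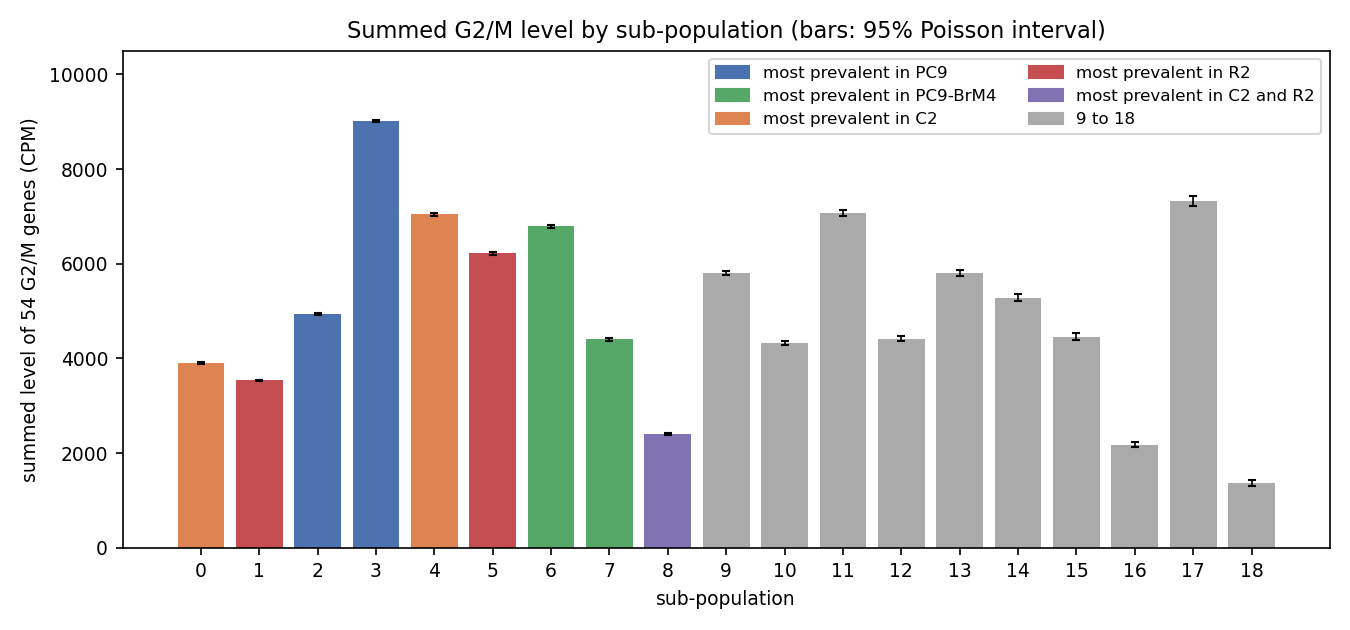
Summed level of the 54 G2/M genes in CPM (vertical axis) in each of the 19 sub-populations (horizontal axis). Colours stand for the lines, with 9 to 18 in grey, and error bars are 95% Poisson intervals of the summed corrected UMIs. Sub-population 3 is highest at 9016 CPM, and 8, 16 and 18 are lowest at 2405, 2176 and 1364 CPM.

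The levels of most members followed this order, which is itself made from their sum. Of the 54, 34 had their highest level in sub-population 3, 6 in 17 and 4 in 11, and 37 had their lowest in 18 and 14 in 16. The shares of all genes with their highest or lowest level in these were not counted. In 16 the median log2 difference from the mean of 0 to 7 was −1.36 for all genes as for the members. Over the 19 sub-populations, Pearson's r between the log2 level of a member and the mean of the other members was at least 0.8 for 45 members, with a median of 0.87 and values from 0.51 for ANP32E to 0.98 for KIF23. These points share libraries and the clustering, so the correlation is a description, and the share of all genes with such an r was not counted. A mean over cells cannot tell a larger share of cells in G2 or M from more transcripts in each of those cells.

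To describe how far each member separated the high from the low sub-population within a line, the difference in log2(CPM + 5) was taken for the 4 pairs. The cells were clustered on these genes among others, and the order of the columns rests on them, so direction alone is no finding and the account concerns which members differed and by how much. A gene counted as measured at a mean of at least 10 CPM over the compared columns, and was called at a difference of at least 1, which with the added 5 takes more than 2-fold in CPM, the more so the lower the gene. In PC9 25 of 54 measured members were called higher, against 0.817% of all 7836 measured genes. In PC9-BrM4 15 of 52 were called, against 0.496% of all genes. In C2 the count was 24 of 51, against 0.947%, and in R2 24 of 52, against 0.826%. No member was called lower, against 0.0128% of genes in PC9 and 0 in the other lines. Medians of the members were 0.97, 0.79, 0.97 and 0.94, beside medians of all measured genes of 0.15, 0.17, 0.18 and 0.23. The ratio of uncorrected to corrected levels was also higher in the high sub-population of each line (1.40 and 0.993 in PC9, 1.03 and 0.816 in PC9-BrM4, 0.944 and 0.728 in C2, 1.09 and 0.876 in R2), and the part of depth in these differences was not tested.

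The order of the members was alike in the 4 lines. With the mean of the 4 pairs and no overlap allowed between the 4 high and the 4 low columns, 21 of 52 measured members were called higher, against 0.676% of all genes. PSRC1 and GAS2L3 fell under the minimum there. Of the 50 genes called, 21 were members, 13 belonged to a list of other mitotic genes and 14 to none of the lists. A difference of at least 1 was reached in all 4 lines by 15 members and in none by 27. In 29 of the 54 the high and low columns did not overlap. The share of all genes meeting each of these criteria was not counted, so these numbers only describe the members. Spearman's rank correlation between 2 lines, over the differences of the 54 members, was between 0.945 and 0.983. Genes are not independent replicates, and the lines were clustered together. The 4 members with the largest differences in CPM made up 31.3% to 35.6% of the summed difference of a line.

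**Figure D2:**
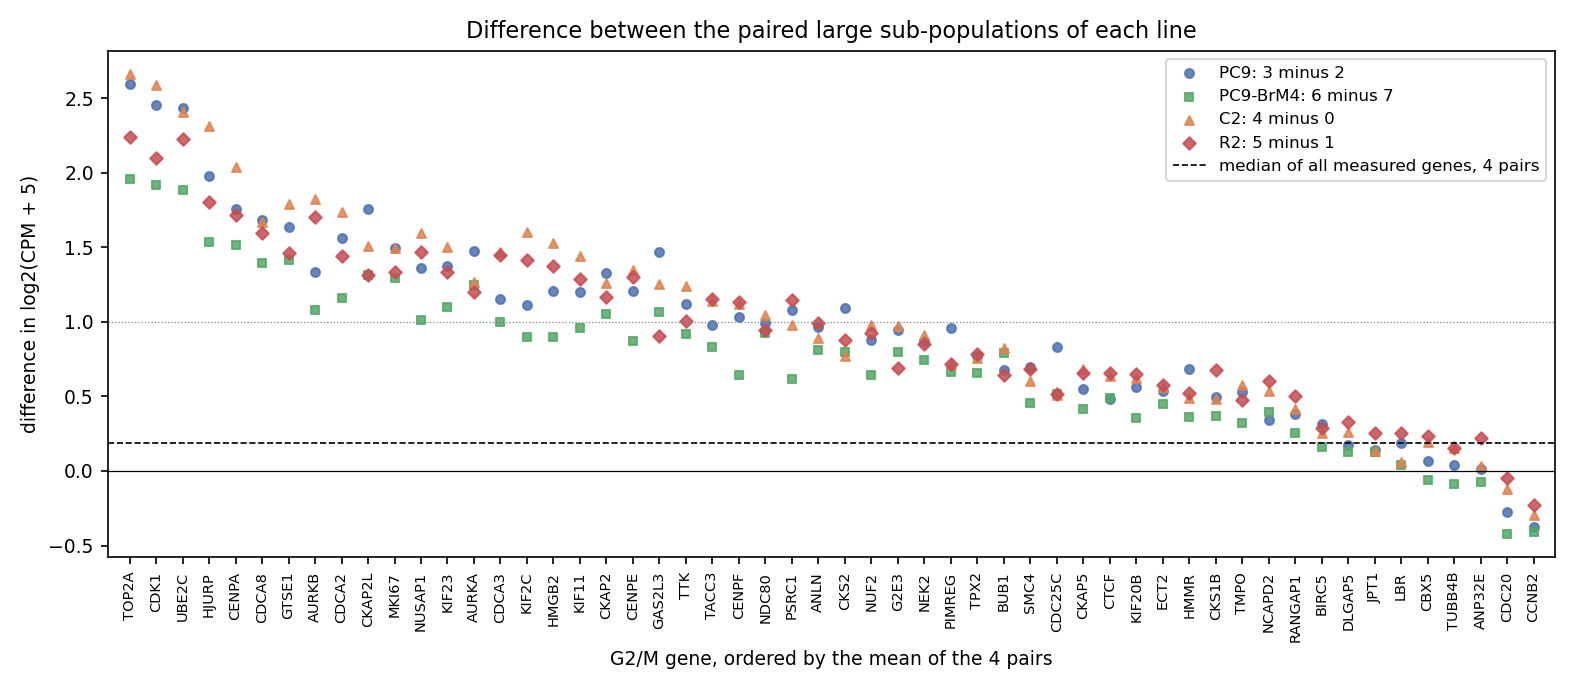
Difference in log2(CPM + 5) between the high and the low large sub-population of each line (vertical axis) for the 54 G2/M genes (horizontal axis), ordered by the mean of the 4 lines. Symbols mark the lines, the dotted line the difference of 1 used for calls, and the dashed line the median of all measured genes over the 4 pairs (0.18). TOP2A, CDK1 and UBE2C lead in every line, and CDC20 and CCNB2 lie below 0 in every line.

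Among the genes that form and serve the CDK1 complex, the kinase itself and its cyclin parted. CDK1 stood at 270, 197, 210 and 198 CPM in sub-populations 3, 6, 4 and 5, and at 45.1, 48.6, 30.8 and 42.3 CPM in 2, 7, 0 and 1. The high and low columns did not overlap, and the mean difference was 2.26 (1.91 to 2.59 in the 4 lines). CCNB2, which encodes cyclin B2, stood at 51.2, 37.8, 41.9 and 51.9 CPM in 3, 6, 4 and 5, and at 68.0, 51.7, 52.6 and 61.6 CPM in 2, 7, 0 and 1. It was thus higher in the low sub-population of each line, by a mean log2 difference of −0.33, which was −0.08 in the table of uncorrected counts. The small CDK-binding subunits CKS2 and CKS1B differed by means of 0.89 and 0.51. CDC25C, the phosphatase that activates CDK1, differed by 0.59 but was at only 8.84 CPM on average over the 19 sub-populations.

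The APC/C and the spindle checkpoint held a pair of members of the same pathway at opposite ends of the order. UBE2C, the ubiquitin-conjugating enzyme that works with the APC/C, stood at 526, 394, 382 and 438 CPM in the high columns and at 93.3, 103, 67.8 and 89.7 CPM in the low ones. Its mean difference was 2.24 (1.88 to 2.43), and it had the largest share of the summed difference in every line, between 291 and 433 CPM. CDC20, the APC/C activator that the checkpoint restrains, stood at 122, 103, 91.3 and 111 CPM in 3, 6, 4 and 5, and at 149, 139, 99.5 and 114 CPM in 2, 7, 0 and 1. Its groups of columns overlapped, and its mean difference was −0.22, or 0.01 in the uncorrected table. The checkpoint kinases TTK and BUB1 differed by 1.07 and 0.73, and CDCA3, a substrate of the APC/C, by 1.27.

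In the chromosomal passenger complex, which corrects attachments of the spindle and acts again in cytokinesis, the kinase and borealin parted from survivin. AURKB was at 88.8, 69.7, 88.4 and 110 CPM in the high columns against 32.2, 30.4, 21.4 and 30.4 CPM in the low ones, and CDCA8, which encodes borealin, was at 52.1, 41.6, 49.6 and 45.7 CPM against 12.8, 12.7, 12.1 and 11.8 CPM. Neither overlapped, and the mean differences were 1.48 and 1.59. BIRC5, the gene of survivin, was at 152, 119, 146 and 143 CPM against 121, 105, 121 and 116 CPM, with a mean difference of 0.26, which was 0.78 in the uncorrected table.

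The 15 genes of the centrosome and spindle had a median of 1.02. GTSE1, a microtubule-binding protein of G2 and M, led with 61.6, 43.1, 49.9 and 40.3 CPM against 16.4, 13.03, 10.9 and 11.4 CPM, with no overlap (mean 1.58). AURKA, the centrosomal Aurora kinase, differed by 1.30, NUSAP1 by 1.36, CKAP2L by 1.47 and CKAP2 by 1.20, all at least 1 in each line. The motor KIF11, which pushes the spindle poles apart, differed by 1.22 and the depolymerase KIF2C by 1.26. TPX2, which activates AURKA, reached only 0.74, the receptor HMMR 0.51 and the microtubule polymerase CKAP5 0.57. The centrosomal kinase NEK2 was at 0.84, TACC3, which stabilises spindle microtubules, at 1.02 and PSRC1 at 0.96. DLGAP5, a spindle assembly factor, was at 124, 89.0, 85.4 and 62.4 CPM against 109, 81.2, 70.4 and 48.6 CPM, with a mean of 0.22. The β-tubulin gene TUBB4B was at 658, 566, 716 and 834 CPM against 640, 601, 644 and 750 CPM, groups that overlapped.

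At the kinetochore, genes that place the centromeric histone led those of the outer plate. HJURP, the chaperone that deposits CENPA, stood at 112, 78.0, 65.1 and 45.7 CPM in 3, 6, 4 and 5 against 24.8, 23.6, 9.09 and 9.51 CPM, and CENPA itself, the histone H3 variant of centromeres, at 70.8, 49.3, 67.2 and 67.0 CPM against 17.4, 14.01, 12.6 and 16.9 CPM. Their mean differences were 1.91 and 1.76. The motor CENPE differed by 1.18, CENPF by 0.98, NDC80 by 0.98 and NUF2 by 0.85. NDC80 and NUF2 encode partners in a complex that binds microtubules, and CENPF a large protein of the outer kinetochore.

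Among genes of chromosome structure, TOP2A had the largest difference of all members in the corrected table, but not in the uncorrected one, where CENPA led with 2.29 and MKI67 (1.46) stood above TOP2A (1.39). This topoisomerase, which untangles sister chromatids, was at 463, 309, 348 and 229 CPM in 3, 6, 4 and 5, and at 72.5, 75.7, 50.7 and 44.5 CPM in 2, 7, 0 and 1. In UMIs per cell this was 7.14 (7.04 to 7.24) in sub-population 3 and 0.711 (0.682 to 0.740) in 0. The mean difference was 2.36, with 1.96 to 2.66 in the lines. MKI67, the gene of the proliferation marker Ki-67, differed by 1.40, CDCA2, which brings a phosphatase to chromatin, by 1.48 and the chromatin protein HMGB2 by 1.25. The condensin genes SMC4 and NCAPD2 were at 0.61 and 0.47, and the insulator protein gene CTCF at 0.57. CBX5, the gene of heterochromatin protein HP1α, was at 137, 104, 132 and 102 CPM against 131, 109, 115 and 86.0 CPM (mean 0.11). ANP32E, a chaperone of the histone variant H2A.Z, was at 145, 141, 52.4 and 39.9 CPM against 144, 149, 51.1 and 33.5 CPM, so that its levels separated PC9 and PC9-BrM4 from C2 and R2 and hardly differed within a line (mean 0.05).

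Nuclear envelope genes differed least as a group, with a median of 0.39 over 3 members and none called in any line. TMPO, which encodes the lamina-associated LAP2 proteins, led with 0.48, and the lamin B receptor gene LBR was at 132, 96.9, 101 and 57.5 CPM against 115, 94.2, 96.1 and 47.5 CPM (mean 0.14). RANGAP1, the GTPase activator of RAN, differed by 0.39. In cytokinesis, KIF23, a motor of the central spindle, differed by 1.33, GAS2L3 by 1.17, the contractile ring scaffold ANLN by 0.91, KIF20B by 0.55 and ECT2 by 0.53. Of the other members, the ubiquitin ligase gene G2E3 differed by 0.85, PIMREG by 0.77 and JPT1 by 0.16. JPT1 was at 434, 440, 542 and 589 CPM in the high and at 394, 404, 494 and 493 CPM in the low columns.

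In all 4 lines 9 members stayed under 0.35: CCNB2, CDC20, BIRC5, DLGAP5, TUBB4B, CBX5, ANP32E, LBR and JPT1. The limit was chosen after the values were seen and the set was not tested. If the median of all genes, 0.18, is subtracted, TUBB4B, CBX5, ANP32E, LBR and JPT1 also fall below 0 on average. In the uncorrected table, 22 of the 23 members with a mean of at least 1 stayed there, and AURKA was at 0.76. With a pseudocount of 20 the number was 14 of 23. Of the 9, BIRC5 (0.78), DLGAP5 (0.57), TUBB4B (0.43), LBR (0.40) and CBX5 (0.38) passed 0.35 on average in the uncorrected table, and CCNB2, CDC20, ANP32E and JPT1 stayed under it. The mean of UBE2C was 1.28 in that table, and that of CKS2 was 0.29.

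The 15 genes with a difference of at least 1 in every line and these 9 also differed in several smaller sub-populations. Against the mean of 0 to 7, the 15 had a median of 0.19 in 10 and 0.30 in 12, while the 9 had medians of −0.87 and −0.49. In 11 the medians were 0.74 for the 15 and 0.04 for the 9, and in 17 they were 0.87 and 0.14. The 15 were the lower ones in 14 (−0.38 against 0.01), 16 (−1.53 against −1.02) and 18 (−1.98 against −1.61). TUBB4B was at 254 CPM in 10 and 155 CPM in 12, where it had between 566 and 834 CPM in 0 to 7. CDC20 was at 60.5 and 49.9 CPM and CCNB2 at 25.8 and 16.8 CPM there, below all of 0 to 7. CENPA, in contrast, was at 70.9 CPM in 10, against 70.8 CPM in 3. Of 51 members measured over the 19 sub-populations, 1 (CENPA) was at least 1 above the mean in 10, against 1.33% of genes, and 2 (TUBB4B and ANP32E) at least 1 below, against 2.99%. In 12, 4 were at least 1 below (TUBB4B, CCNB2, CDC20 and ANLN), against 3.75%, and none at least 1 above, against 0.206%. Both sub-populations also had summed epithelial markers of 7887 and 6235 CPM, less than the 15045 to 22526 CPM of 0 to 7, and the part of this in the members' levels was not tested.

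**Figure D3:**
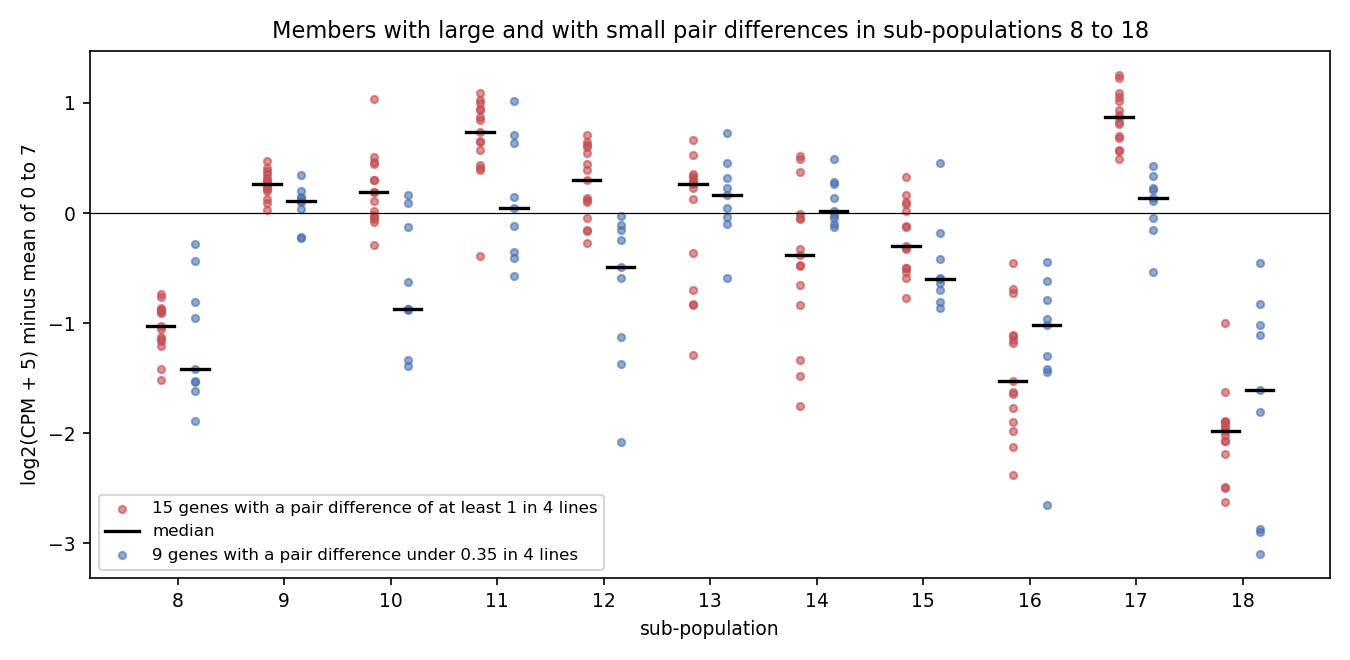
Level of each gene as log2(CPM + 5) minus its mean over 0 to 7 (vertical axis) in sub-populations 8 to 18 (horizontal axis). Red points are the 15 members with a pair difference of at least 1 in all 4 lines, blue points the 9 members under 0.35 in all 4 lines, and black bars the medians. In 10 and 12 the red medians are 0.19 and 0.30 and the blue medians −0.87 and −0.49.

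Sub-populations 17 and 11 were the smaller ones with high G2/M levels. In 17, 48 of 51 measured members were above the mean of 0 to 7, 5 of them by at least 1 (0.535% of genes) and none lower by 1 (0.0412% of genes), and AURKB was highest of all sub-populations at 128 CPM. In 11, 43 were above, 6 by at least 1 (0.549% of genes) and none lower by 1 (1.13% of genes), among them CENPF at 560 CPM and ANLN at 157 CPM. There too members went apart, since AURKB was at 37.5 CPM in 11, less than in any of 3, 4, 5 and 6. In 9, 45 members were above the mean but none by 1, while 0.137% of genes were, and none was lower by 1 (0.0275% of genes). Medians of the members in 17, 11 and 9 were 0.49, 0.52 and 0.20, beside 0.07, 0.03 and 0.07 for all genes. In 15, where 14 of 51 were above and 3 lower by at least 1 (CDCA3, TACC3 and TMPO, against 1.47% of genes), none was higher by 1, where 8.13% of genes were. There SMC4 had its highest level, 276 CPM.

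The sub-populations with the lowest G2/M levels differed in what surrounded that level. In 18, all 51 members were below the mean and 46 by at least 1, against 5.63% of genes (1.59% were higher by 1), with a median of −1.91 beside −0.09 for all genes. TOP2A was at 20.9 CPM there and MKI67 at 22.1 CPM, or 0.306 (0.212 to 0.428) and 0.324 (0.227 to 0.449) UMIs per cell, and no UMI of PSRC1 was counted in its 111 cells, which allows up to 0.0332 per cell. In 16, where mitochondrial transcripts took most UMIs, 37 were lower by at least 1, but so were 75.3% of all genes (0.233% were higher by 1), with a median of −1.36 for members and for all genes. In 13 and 14, the other sub-populations where the ratio of uncorrected to corrected levels was low, 1 and 10 members were lower by at least 1, against 13.7% and 25.6% of genes, and none was higher by 1, against 0.0824% and 0.343%.

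Sub-population 8 was compared with 0, 1, 4 and 5, the sub-populations of C2 and R2. Of 51 measured members 18 were called lower, against 0.615% of genes, and none higher, against 0.629%. Medians by role ran from −0.46 in the other members to −1.04 in the kinetochore genes, and the median over the 51 was −0.94, beside −0.06 for all genes. Without sub-population 4 the count was 9, and without 0 or 1 it was 34 or 31. The 9 members of small pair difference had a median of −0.93 here, beside −0.87 for the 15. HMMR was at 30.0 CPM in 8 against 84.7 to 151 CPM in 0, 1, 4 and 5. In 39 of 54 members the level in 8 lay below all of 0 to 7, and the share of all genes that did so was not counted. At least 1 cell of sub-population 8 held many transcripts all the same. The uncorrected table holds the mean over cells of e raised to the count, minus 1, which limits the count in the cell with most transcripts of a gene. In sub-population 8 that cell held between 44 and 51 uncorrected UMIs of UBE2C, where the corrected mean was 1.52 (1.45 to 1.59) per cell, against 11 to 19 in 0, 20 to 27 in 1, 35 to 42 in 4 and 36 to 43 in 5. The limits for 8 lay above those for each of the others. For CDK1 they were 10 to 16 in 8, against 1 to 8 in 0, 7 to 13 in 1, 10 to 17 in 4 and 12 to 19 in 5, so that 8 overlapped 1, 4 and 5. In the uncorrected table, whose values rise with such cells by construction, 10 members were called lower, 11 members were above the C2 and R2 sub-populations in 8 and 43 below, and TPX2 was at 0.45 where the corrected difference was −1.42.

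For TOP2A the same limits did not overlap within any line. The cell with most TOP2A held 49 to 56 UMIs in 3 and 13 to 20 in 2, 32 to 39 in 6 and 15 to 22 in 7, 20 to 27 in 4 and 4 to 11 in 0, and 20 to 27 in 5 and 8 to 15 in 1. Sub-populations with low means thus each still held at least 1 cell with several TOP2A transcripts, and whether it was a doublet was not assessed.

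Between R2 and C2 some members were lower and others higher. No member was called in either direction, where 0.393% of genes were called lower and 0 higher, and 38 of 52 measured members were below 0 (median −0.21, beside −0.02 for all genes). In the uncorrected table the 2 medians lay close together, at −0.10 for the members and −0.07 for all genes. The summed level was 6222 against 7046 CPM in the high and 3536 against 3909 CPM in the low sub-populations. ANLN was furthest below, at 73.5 and 34.5 CPM in 5 and 1 against 145 and 75.9 CPM in 4 and 0 (differences −0.94 and −1.03). LBR (−0.76 and −0.94), CKAP5 (−0.79 and −0.76), ECT2 (−0.76 and −0.77) and MKI67 (−0.84 and −0.68) followed. PSRC1, a microtubule-binding protein, was at 21.9 and 7.15 CPM in 5 and 1 against 10.9 and 3.04 CPM in 4 and 0 (0.76 and 0.59), and CDCA3 at 74.5 and 24.2 against 46.9 and 13.8 CPM (0.61 and 0.63). The nuclear envelope genes had the lowest median by role, −0.68.

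These differences moved with the length of the transcript. Spearman's rank correlation between the R2 against C2 difference and the length of the canonical transcript was −0.84 over the 52 members and −0.64 over 6916 genes, as a description across genes. The 26 shorter members, up to 2983 bases, had a median of 0.02, with 13 above 0, and the 26 longer members a median of −0.45, with 1 above 0, CKAP2L. After the median difference in each of 20 bins of length was subtracted, the median of the members was −0.14 and 40 of 52 were below 0. In the pairs within a line this correlation was between −0.14 and −0.04 over the members, and between 0.14 and 0.20 over all measured genes. What length stands for here was not tested.

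**Figure D4:**
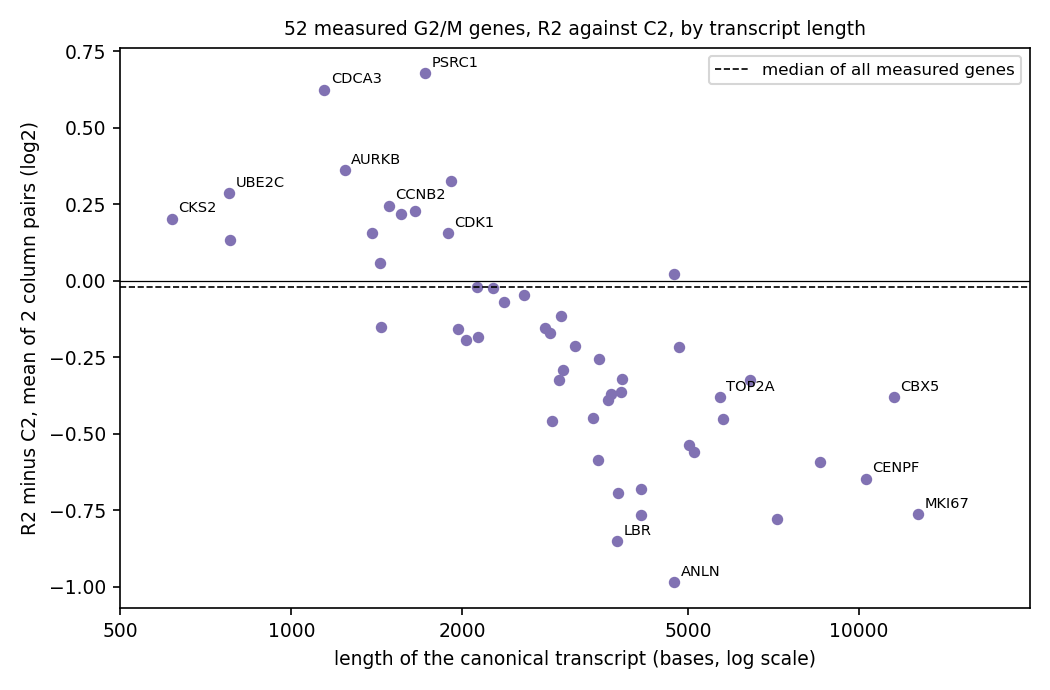
Mean of the 2 log2 differences between R2 and C2 sub-populations (5 minus 4 and 1 minus 0, vertical axis) against the length of the canonical transcript in bases on a log scale (horizontal axis), for the 52 measured G2/M genes. The dashed line is the median of all measured genes (−0.02). Long transcripts such as MKI67 and CENPF lie below 0, and CDCA3, PSRC1 and AURKB are furthest above it.

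The steps of passage without drug were compared in the same way. C2 against PC9-BrM4 gave 1 member called lower, ANP32E (−1.40), against 0.841% of genes, and none higher, against 1.74%. ANP32E was at 52.4 and 51.1 CPM in 4 and 0 against 141 and 149 CPM in 6 and 7. The median of the members was −0.12, beside −0.05 for all genes, but the columns went apart, with a median of 0.05 and 31 of 51 above 0 in 4 against 6 and a median of −0.20 and 38 of 51 below 0 in 0 against 7. CKS1B, at 178 and 126 CPM against 293 and 226 CPM, was at −0.76 and ANLN at 0.61. In PC9-BrM4 against PC9 no member was called in either direction, where 0.383% of genes were called lower and 0.0925% higher, but 49 of 52 measured members were below 0 (median −0.27, beside −0.11 for all genes). In 6 against 3, 50 of 52 were below 0 (median −0.38, beside −0.10 for all genes), and in 7 against 2, 44 were (−0.19, beside −0.12). NUF2 at −0.83 and CENPF at −0.77 were furthest below.

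Other genes of the cycle were set beside the members from lists of their own. Of 65 measured further mitotic genes 13 were called higher over the 4 pairs (median 0.69, beside 0.87 for the members), led by FAM83D, which brings a kinase to the spindle (57.5 against 7.64 CPM, 2.28), and CCNF, a ubiquitin ligase subunit (1.57). The smallest were PTTG1, the gene of securin, at 208 against 313 CPM (−0.58) and CDKN3, a CDK phosphatase, at −0.22. CCNB1, named after its values were seen, followed its relative CCNB2, with 228, 144, 175 and 151 CPM in 3, 6, 4 and 5 against 238, 199, 184 and 172 CPM in 2, 7, 0 and 1. Of 41 S phase genes 1 was called, RRM2 (1.06), and the list median was 0.27, with RAD51AP1 at 0.82, CDCA7 at −0.50 and DTL at −0.79. None of 17 regulators was called, with FOXM1 at 65.1 against 31.4 CPM (0.95) and E2F8 (0.71) highest and E2F1 (0.04) and E2F3 (0.05) lowest. None of 15 further kinases, phosphatases and inhibitors of mitotic entry was called (median 0.31), from FBXO5 (0.97) and CDC25B (0.82) to CDC25A (0.02) and PPP2R1A (−0.02). Of 14 genes of quiescence and CDK inhibition 1 was called, CDKN2D (1.26), CDKN1B was at 0.66, TOB1 at −0.31 and HES1 at −0.13, and the median was 0.08. The 5 epithelial markers had a median of −0.14, with none called.

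The genes outside the list most like the mean of the members over the 19 sub-populations, out of 7024 ranked, were MELK (r = 0.96), the cohesin protector SGO2 (0.96), the DNA methyltransferase DNMT1 (0.94), CIP2A (0.92), SPAG5, ASPM, PLK1, SPC25, E2F8 and RAD51AP1 (each 0.92). PLK1, the kinase that acts with AURKA in mitotic entry, stood at 103, 70.5, 88.7 and 86.6 CPM in 3, 6, 4 and 5 and at 37.3, 26.1, 29.5 and 31.8 CPM in 2, 7, 0 and 1. DNMT1 followed the members in r but differed by only 0.27 within the pairs.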

How the data were processed

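Single-cell libraries (10x 3′ version 3 chemistry) were made by the authors, 1 for each of 4 lines. The methods state alignment to hg38 by Cell Ranger, a minimum of 200 transcripts per cell and of 3 cells per gene, and joint clustering in Seurat 3 after sctransform, with mitochondrial percentage regressed out.

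The 2 tables the authors deposited hold means per sub-population. Doublets were not assessed. The deposited values of the corrected table are mean corrected UMIs per cell, and each column times a whole number of cells gave whole UMIs within 0.001. In the other, the deposited values are means of e raised to the count, minus 1, which were converted to counts as if Poisson (so they rise with spread between cells) and divided by the median ratio to corrected values over 1967 genes of 0.5 to 5 UMIs. Columns were rescaled to 1000000, and differences taken on the log2(CPM + 5) scale, which understates those of low genes. Members and lists were chosen with earlier results of these data known. Transcript lengths and positions are from GENCODE 44. Named are all members, the 2 largest and 2 smallest of each further list, and the 10 genes most like the members. Versions were Python 3.11.15, pandas 2.3.3, NumPy 2.4.6, SciPy 1.17.1 and matplotlib 3.10.9.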

Additional observations from a re-analysis of the deposited data

Results flagged for a closer look

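TUBB4B, the β-tubulin gene, had pair differences of opposite sign between lines beyond the counting intervals of its levels. The difference was 0.039 in PC9, −0.0866 in PC9-BrM4, 0.152 in C2 and 0.152 in R2, on the log2(CPM + 5) scale. Less the median of all genes in each pair, the values were −0.11, −0.26, −0.03 and −0.08, all below 0, so the opposite signs were not seen under that centring. The difference between lines was not tested, since each line had 1 library.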

How the results depend on the processing

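Of 89 alternatives to the counts and summary values, 65 left the value within 1.5 times. Counts below are of members called higher in the 4 pairs, and of members called lower in sub-population 8 and between lines. The shares of genes beside them are for the same direction. Among the 18 members called lower in sub-population 8, CDC20, TPX2 and NDC80 turned above 0 in the table of uncorrected counts (0.48, 0.45 and 0.92). With calls at a difference of 0.5 the counts were 41 in PC9, 33 in PC9-BrM4, 39 in C2 and 42 in R2, against 3.94%, 3.51%, 5.05% and 6.92% of genes, and 36 in sub-population 8, against 6.01%. At that size 12 of 52 members were called lower in R2 against C2, beside 10.2% of genes. The counts were 5 of 51 in C2 against PC9-BrM4 (7.65%) and 6 of 52 in PC9-BrM4 against PC9 (4.11%). On the higher side PSRC1 (0.68) and CDCA3 (0.62) passed 0.5 in R2 against C2, and ANLN (0.61) in C2 against PC9-BrM4. The share of genes called higher at that size was not counted. A minimum of 50 CPM, which removes low members, left 9 of 32 in PC9-BrM4, 11 of 31 in C2, 8 of 27 in R2 and 10 of 33 over the 4 pairs, against 0.727%, 1.01%, 0.681% and 0.844%. A pseudocount of 20 left 7 in PC9-BrM4, 12 in R2 and 9 in sub-population 8 (0.234%, 0.242% and 0.223%), and a pseudocount of 1 gave 30 in sub-population 8 and 1 in R2 against C2 (0.992% and 0.799%). In the table of uncorrected counts there were 23 in PC9-BrM4, 10 in sub-population 8, 3 in C2 against PC9-BrM4 and 2 in PC9-BrM4 against PC9, against 2.70%, 0.656%, 2.14% and 1.79%. Sub-population 8 without column 0, 1 or 4 gave 34, 31 or 9, against 0.966%, 1.01% or 0.342%. Leaving out a line gave 20 to 22 over the 4 pairs. Likeness without 13, 14 and 16, and the smaller sub-populations against their own side only, were chosen after seeing the data. The first gave 47 members with r of at least 0.8. The second moved the medians of 13 and 10 to −0.07 and −0.02. In the uncorrected table the median of 13 was −0.40, where it was 0.13 in the corrected one, and that of 14 was −1.15, where it was −0.31. The medians of 9, 11 and 15 rose there, to 0.34, 0.74 and −0.04, and those of the remaining smaller sub-populations fell. The ratio of 3 to 18 in the summed level was 5.47 in the uncorrected table. No paired analysis was possible because no column carries a replicate number.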
